A study of Mus musculus with 9 samples.

Results

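Cadherins are cell surface proteins that bind each other across the gap between neighbouring cells, and the genes described here are the cadherin and protocadherin superfamily together with the catenins that tie it to the cytoskeleton. They were measured in amygdala RNA pulled down with Ago2, or Argonaute 2, which holds microRNAs and their target transcripts, from tissue of male C57BL/6J mice. The members were all deposited gene symbols that begin with Pcdh, Celsr, Dchs, Ctnn or Clstn, or that name a numbered Cdh, Dsc or Dsg gene or one of the Fat genes. They came to 38 of the 9803 genes in the table. RefSeq lists 123 genes under the same names, and the other 85 are not analysed here. The table thus held 30.9% of the family, against 35.0% of all RefSeq protein-coding genes. The 3 groups, with 3 arrays each, were susceptible and resilient mice after chronic social defeat, a stress protocol of repeated exposure to an aggressor, and controls without defeat. Mice were 10 weeks old at the start and amygdala was collected 8 days after defeat ended. The sources used here state neither the criterion for susceptible and resilient nor the animals behind each array. The p-values therefore describe the spread among these 9 arrays, part of which may be technical.

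Classical cadherins join like cells through calcium-dependent contacts and span synapses between neurons, with catenins bound to their inner tails. The clustered protocadherins are made from tandem gene arrays, and each neuron uses its own mix of them to tell its own branches from those of others. The seven-pass cadherins, encoded by the Celsr genes, and the giant cadherins of the Fat and Dachsous type set the planar polarity of tissues, and in brain they guide axon tracts, dendrites and the cilia of ependymal cells.

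Values are log2 signals after RMA, the authors' background correction, normalisation and summary of probes, so a difference of 1 is a doubling. Abundance in the tissue, binding by Ago2 and carry-over in the pulldown all enter a value and cannot be told apart, and in this bulk material fewer cells of a type and less RNA per cell cannot be told apart either. The table had been selected for differences between the 3 groups: by its entry with the smallest p, every gene had a one-way analysis of variance p of at most 0.287. Counts over the 38 members are therefore not counts over the family, and they are read beside the same share of all 9803 genes. The same holds for the lists of marker and partner genes, where measured means present in this selected table. Adjusted p-values are limma's with Benjamini-Hochberg adjustment over all genes, and a gene was called under 0.05. A second adjusted p, named with the allowance, divides each p by the selection bound first. For a gene with several entries the bound may not hold for the entry kept, that of highest mean signal. Precision is limited by 3 arrays per group.

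The arrays also differed in marker genes of other cells. Of 16 choroid plexus and ependyma markers, 14 were in the table, and their mean log2 signal was 9.64 to 10.10 in susceptible, 9.17 to 9.72 in resilient and 9.16 to 9.63 in control arrays. The 6 measured markers of central amygdala and striatal-type neurons, of 16, averaged 7.03 to 7.63 in susceptible, 7.55 to 8.79 in resilient and 7.85 to 8.10 in control arrays. Resilient 1 alone was at 8.79, above every other array. Markers left out by the selection of the table may not share the direction of those in it. Of 13 oligodendrocyte markers 3 were in the table. All 3 were lower in susceptible mice than in controls, where 57.9% of all genes were higher. Their median was -0.39, and limma called 0, against 2.4% of all genes. Their groups did not overlap, as for 14.8% of all genes in the lower direction. Their mean differed from the control mean by -0.46, -0.44 and -0.31 in susceptible arrays 1 to 3, 0.07, -0.46 and -0.36 in resilient arrays 1 to 3 and -0.06 to 0.07 in controls. All 6 measured markers of microglia and macrophages, of 13, were lower too, with a median of -0.16 and 0 called, and resilient 1 was again the defeated array nearest the control mean, at 0.0029 above it. The part of either in the cadherin values was not tested. Of amygdala markers, the central amygdala genes Prkcd, Sst, Crh and Tac2 are not analysed here, and the excitatory neuron genes Lypd1 and Slc17a6 averaged 12.55 and 9.59 over the 9 arrays.

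Of the 9 seven-pass and giant cadherin genes that RefSeq lists, 8 were in the table. After its selection for group differences the table held 35.0% of RefSeq protein-coding genes. Between defeated and control mice 6 were higher and 2 lower and limma called 0, at a median of 0.22, while 58.6% of all genes were higher, with a median of 0.04, and 1.29% were called. Celsr1, Celsr2, Celsr3, Dchs1, Fat1 and Fat4 had higher means in both defeated groups than in controls. Their differences between susceptible and control mice lay between 0.23 and 0.34, and all 6 stayed above controls when arrays were shifted to one median or quantile normalised. Celsr1 rose in susceptible mice and was the 1 member called in any comparison. The other 5 did not pass the test over all genes.

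Promoter sequences are shown for 3 of these genes because their values were higher together. The RefSeq table held a window of 300 bases, 250 before and 50 after the start, for 4 of the 6 genes. The windows of Celsr2 (chr3:108415530-108415829, minus strand), Celsr3 (chr9:108825795-108826094, plus strand) and Fat4 (chr3:38886690-38886989, plus strand), all of build GRCm38.p6, are given 5′ to 3′ with motif matches in capitals.
Celsr2: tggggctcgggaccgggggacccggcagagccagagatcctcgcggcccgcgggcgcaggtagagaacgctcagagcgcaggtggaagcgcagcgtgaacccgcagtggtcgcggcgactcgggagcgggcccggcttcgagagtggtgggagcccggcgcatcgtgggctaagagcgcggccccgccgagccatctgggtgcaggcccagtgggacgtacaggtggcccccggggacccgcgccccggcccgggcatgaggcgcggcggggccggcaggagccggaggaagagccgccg
Celsr3: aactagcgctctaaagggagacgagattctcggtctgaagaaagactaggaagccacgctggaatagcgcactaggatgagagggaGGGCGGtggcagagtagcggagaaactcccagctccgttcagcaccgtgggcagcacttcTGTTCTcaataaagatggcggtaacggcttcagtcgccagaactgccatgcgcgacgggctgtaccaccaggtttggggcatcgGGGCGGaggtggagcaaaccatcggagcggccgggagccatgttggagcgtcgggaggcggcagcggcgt
Fat4: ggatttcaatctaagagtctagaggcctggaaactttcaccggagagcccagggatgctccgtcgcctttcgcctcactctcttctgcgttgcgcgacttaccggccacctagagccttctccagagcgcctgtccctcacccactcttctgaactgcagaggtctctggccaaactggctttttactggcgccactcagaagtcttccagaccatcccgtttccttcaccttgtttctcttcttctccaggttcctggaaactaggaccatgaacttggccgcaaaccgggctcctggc
The motifs searched on both strands were the GC box GGGCGG, the TATA box TATAAA, the glucocorticoid receptor half-site AGAACA, the E-box CACGTG and the CCAAT box CCAAT. The Celsr3 window held 2 GC boxes and 1 half-site, and the windows of Celsr2 and Fat4 held 0 of the 5 motifs. Among 32851 promoter windows of the same length, 35.7% held a GC box and 18.97% a half-site, and 13.6%, 7.15% and 37.4% held a TATA box, E-box and CCAAT box. The dinucleotide CG occurred 40 times in the Celsr2 window, 25 times in that of Celsr3 13 times in that of Fat4 and 2 times in the fourth window, that of Fat1, which held 0 of the 5 motifs, against a median of 7 over all windows. These matches describe the letters in the windows and show no binding.

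Celsr1 encodes a seven-pass cadherin with a role in planar polarity of epithelia. Its log2 signal was 7.50, 7.26 and 7.50 in susceptible arrays, 7.27, 7.28 and 7.26 in resilient arrays and 7.20, 7.03 and 7.01 in controls. All 6 defeated arrays lay above all 3 controls, though susceptible 2 equalled the lowest resilient array. The difference between susceptible and control mice was 0.34 (SE 0.073), or 1.27-fold, with a limma adjusted p of 0.0489 and of 0.171 with the allowance. The call ended without any one of control 1, control 2, control 4, susceptible 2, susceptible 3, resilient 2 or resilient 3, with adjusted p between 0.0592 and 0.137. Among all 9803 genes 2.4% were called in this comparison, against 1 of 38 members, or 2.63%. In resilient mice the difference from controls was 0.19 (SE 0.073), with a limma adjusted p of 0.222. Susceptible minus resilient was 0.15 (SE 0.073, limma adjusted p = 0.411).

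Celsr3 encodes a seven-pass cadherin needed for the major axon tracts of the forebrain. Its signal was 9.22, 9.16 and 9.34 in susceptible, 9.14, 9.23 and 9.18 in resilient and 8.97, 9.06 and 8.85 in control arrays. The defeated arrays of both groups overlapped each other and lay above the controls. Differences from controls were 0.28 (SE 0.063) in susceptible and 0.22 (SE 0.063) in resilient mice, with limma adjusted p-values of 0.0510 and 0.190. Celsr2 acts with Celsr3 in the cilia of ependymal cells. It had 11.71, 11.71 and 11.69 in susceptible, 11.42, 11.53 and 11.66 in resilient and 11.34, 11.30 and 11.54 in control arrays. The 3 susceptible arrays lay above all 6 others, and the resilient arrays overlapped the controls. Celsr2 differed by 0.31 (SE 0.073) between susceptible and control mice, or 1.24-fold (limma adjusted p = 0.0551).

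Fat4 and Dchs1 encode giant cadherins that bind each other across cell borders. Fat4 had 9.89, 9.90 and 9.93 in susceptible, 9.66, 10.04 and 9.90 in resilient and 9.63, 9.61 and 9.61 in control arrays. Again all 6 defeated arrays lay above the controls, resilient 1 by the least. The differences from controls were 0.29 (SE 0.080) in susceptible and 0.25 (SE 0.080) in resilient mice, with limma adjusted p-values of 0.0667 and 0.198. Dchs1 had 8.62, 8.74 and 8.55 in susceptible, 8.34, 8.50 and 8.60 in resilient and 8.34, 8.23 and 8.43 in control arrays. Its susceptible arrays lay above the controls, while the resilient arrays overlapped them. The difference was 0.30 (SE 0.078) in susceptible mice (limma adjusted p = 0.0630). Fat1, a giant cadherin that acts on actin at the cell edge, had 10.10, 9.89 and 9.97 in susceptible, 9.71, 10.04 and 9.86 in resilient and 9.83, 9.64 and 9.80 in control arrays. Only its susceptible arrays lay clear of the controls, by 0.23 on average (SE 0.088, limma adjusted p = 0.101).

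**Figure D1:**
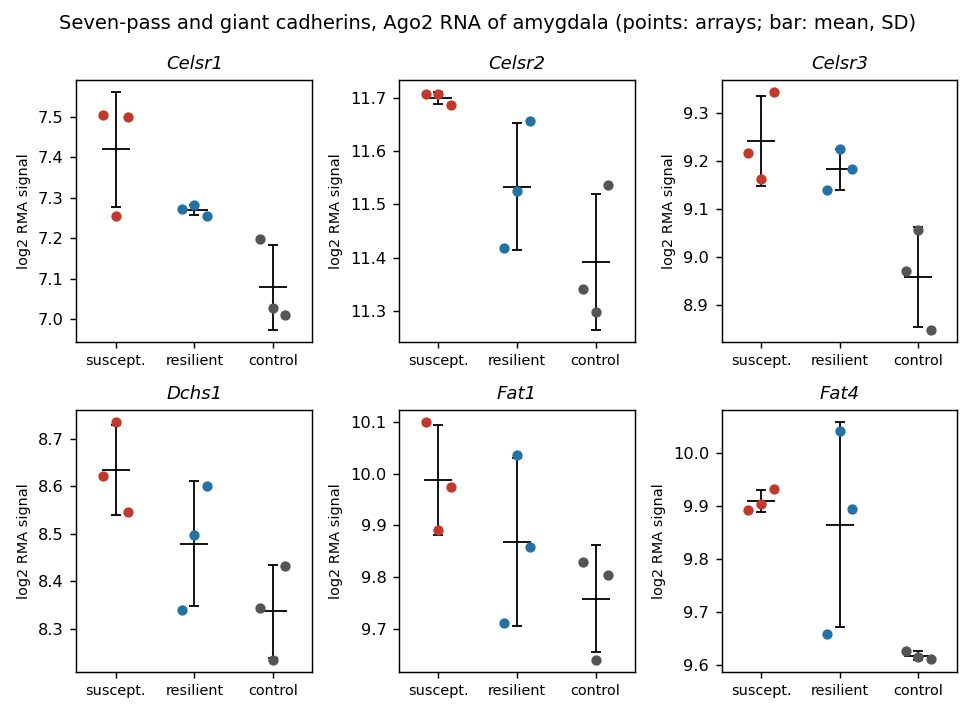
Log2 RMA signal (vertical axes, each with its own range) of 6 seven-pass and giant cadherin genes in susceptible, resilient and control arrays; points are arrays, horizontal bars group means and error bars SD (n = 3 each). For Celsr1, Celsr3 and Fat4 all 6 defeated arrays lie above the 3 controls, and for Celsr2 the susceptible arrays lie above the other 6.

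All 14 measured choroid plexus and ependyma markers were also higher in susceptible mice than in controls, with a median of 0.51, and 13 of 14 in resilient mice, with a median of 0.14. Limma called 0 of them, and 12 had an unadjusted p under 0.05 in susceptible mice, all higher, against 25.9% of all genes. Of all genes 57.9% were higher in susceptible and 58.4% in resilient mice. The part of the markers in the differences of the seven-pass and giant cadherins was not tested. The mean of the choroid plexus markers differed from the control mean by 0.39, 0.27 and 0.73 in susceptible arrays 1 to 3, -0.20, 0.20 and 0.35 in resilient arrays 1 to 3 and -0.21, -0.06 and 0.26 in controls 1, 2 and 4. The mean of the 8 seven-pass and giant cadherins differed by 0.23, 0.15 and 0.17 in the same susceptible arrays, 0.07, 0.19 and 0.15 in the resilient arrays and 0.03, -0.02 and -0.01 in the controls. Without Fat2 and Fat3, the mean of the other 6 differed by 0.32, 0.25 and 0.31 in susceptible arrays 1 to 3. It differed by 0.07, 0.24 and 0.22 in resilient arrays 1 to 3 and by 0.03, -0.04 and 0.02 in controls 1, 2 and 4.

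Fat3, a giant cadherin that shapes the dendrites of retinal amacrine neurons, gave opposite values by entry. The table held 15 entries of Fat3, and the one with the highest mean signal, kept by the rule, was 11.65, 11.48 and 11.40 in susceptible, 11.91, 11.73 and 11.53 in resilient and 11.79, 11.80 and 11.54 in control arrays. By this entry the groups overlapped, and susceptible minus control was -0.20 (SE 0.11, limma adjusted p = 0.161). By each of the other 14 entries, susceptible mice had a higher mean than controls, with differences of 0.02 to 0.23 and a median of 0.14. In resilient mice the same 14 entries were higher than in controls by 0.10 to 0.27, with a median of 0.20, against 0.01 for the kept entry. When every entry was fitted on its own, limma called 0 of the 15 in any comparison, and 4 had an unadjusted p under 0.05 between defeated and control mice. Across the 9 arrays the 14 entries followed each other, with correlations of 0.71 to 0.98, and the kept entry had correlations of 0.13 to 0.58 with them. All 15 come from the same 9 RNA samples and are not replicates, and the sources used here do not say which stretch of the transcript each entry reads.

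**Figure D2:**
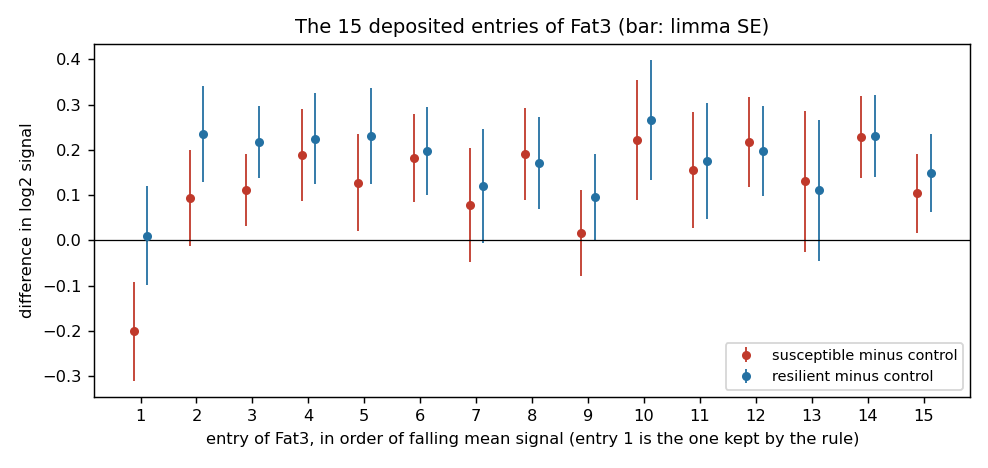
Differences from control in log2 signal (vertical axis, bars are limma SE) of the 15 entries of Fat3, in order of falling mean signal from left to right, for susceptible and resilient mice. Entry 1, kept by the rule, is the only entry below 0 in susceptible mice, at -0.20.

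Fat2, a giant cadherin known from cerebellar granule cells, was at 4.94, 4.86 and 4.78 in susceptible, 4.89, 5.01 and 5.02 in resilient and 4.94 in all 3 control arrays. Exact ties of this kind, with at least 2 arrays at one value, occurred in 13 of the 38 members. Fat2 was also 1 of 7 members whose mean lay at or below 6.12, the 95th percentile of 586 olfactory and vomeronasal receptor genes, taken as a measure of dim signal. The others were Cdh1, Cdh15, Cdh16, Cdh17, Dsg1b and Pcdhb1. The differences of these 7 are therefore given as values near the floor of the arrays.

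Delta protocadherins are the non-clustered members that signal through conserved motifs in their tails. Of 9 genes 5 were in the table. In susceptible mice 4 of the 5 were higher than in controls, at a median of 0.20, against 57.9% of all genes. Limma called 0 of the 5 in this comparison, against 2.4% of all genes. Pcdh8, known as a protocadherin induced by neuronal activity, had 9.08, 9.23 and 9.18 in susceptible, 8.86, 9.10 and 8.98 in resilient and 8.89, 8.91 and 8.99 in control arrays. Its susceptible arrays lay above the controls and overlapped the resilient arrays. The difference from controls was 0.23 (SE 0.065) in susceptible mice and 0.05 (SE 0.065) in resilient mice, with limma adjusted p-values of 0.0667 and 0.610. A second entry of Pcdh8, at a mean of 5.45, had 0.01 and -0.06.

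Pcdh19, an X-linked protocadherin that pairs with N-cadherin, had 11.01, 11.01 and 10.95 in susceptible, 10.76, 10.88 and 10.96 in resilient and 10.68, 10.68 and 11.01 in control arrays. Control 4 reached the level of the susceptible arrays, and the difference of 0.20 (SE 0.088) had a limma adjusted p of 0.123. Pcdh7 had 10.58, 10.60 and 10.63 in susceptible, 10.50, 10.63 and 10.57 in resilient and 10.41, 10.50 and 10.54 in control arrays. Its susceptible arrays lay above the controls by 0.12 on average (SE 0.048, limma adjusted p = 0.102). Pcdh1 differed by 0.20 (SE 0.081) in susceptible mice, also with 3 arrays above the controls. Pcdh9 was the 1 member of this group below controls, with 11.04, 11.10 and 11.10 in susceptible, 11.12, 11.05 and 11.16 in resilient and 11.12, 11.14 and 11.18 in control arrays. Its differences were small, at -0.06 (SE 0.041) in susceptible and -0.03 (SE 0.041) in resilient mice. A second entry of Pcdh9, at a mean of 10.95, had -0.01 and -0.02, and its groups overlapped.

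Of the clustered protocadherins the table held 1 of 14 alpha genes, 7 of 22 beta genes and 0 of 22 gamma genes. It held 35.0% of RefSeq protein-coding genes, and absence from it may reflect its selection for group differences. The alpha gene Pcdha10 had 8.36, 8.38 and 8.41 in susceptible, 8.33, 8.36 and 8.44 in resilient and 8.28, 8.33 and 8.36 in control arrays. The groups overlapped, with a susceptible difference of 0.06 (SE 0.041) that turned to -0.04 after quantile normalisation. Of the beta genes 5 were lower and 2 higher in susceptible mice than in controls, with a median of -0.10, while in resilient mice 3 were lower and 4 higher, with a median of 0.01. With arrays shifted to one median the resilient split was 5 lower and 2 higher. Of all genes 57.9% were higher in susceptible and 58.4% in resilient mice, or 47.8% in resilient mice with that shift. Limma called 0 of the 7 beta genes in either comparison. In susceptible mice 3 of the 7 had an unadjusted p under 0.05, all 3 lower. Of all genes 40.7% had one in either direction and 14.8% in the lower direction. Beta genes are similar in sequence, so a probe set of one may also read another.

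Pcdhb19 had 7.45, 7.49 and 7.54 in susceptible, 7.54, 7.47 and 7.53 in resilient and 7.78, 7.57 and 7.66 in control arrays. All 6 defeated arrays lay below the 3 controls. The difference from controls was -0.18 (SE 0.055) in susceptible and -0.16 (SE 0.055) in resilient mice, with limma adjusted p-values of 0.0771 and 0.208. Pcdhb8 had 7.08, 7.02 and 7.01 in susceptible, 7.09, 7.12 and 7.09 in resilient and 7.21, 7.09 and 7.17 in control arrays. Its susceptible arrays were the lowest of the 9, and its difference from controls was -0.12 (SE 0.041, limma adjusted p = 0.0884). Pcdhb18 had 7.25, 7.36 and 7.35 in susceptible, 7.51, 7.50 and 7.46 in resilient and 7.39, 7.39 and 7.65 in control arrays. Its susceptible arrays were again the lowest, with a difference of -0.16 (SE 0.069) from controls, against 0.01 (SE 0.069) in resilient mice.

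Pcdhb16 had 7.89, 7.79 and 7.92 in susceptible, 7.95, 7.98 and 8.49 in resilient and 7.96, 7.81 and 8.06 in control arrays. Resilient 3 stood apart, and the resilient difference from controls, which includes it, was 0.19 (SE 0.13). Pcdhb4 had 6.96, 7.08 and 7.13 in susceptible, 6.96, 6.82 and 6.97 in resilient and 6.95, 6.97 and 6.98 in control arrays. Susceptible 1 lay among the resilient arrays, and susceptible minus resilient was 0.14 (SE 0.056, limma adjusted p = 0.411). Pcdhb21 had -0.21 (SE 0.087) in the same comparison.

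Among the type I classical cadherins, Cdh4, also called R-cadherin, had 10.35, 10.41 and 10.27 in susceptible, 10.27, 10.37 and 10.18 in resilient and 10.27, 10.12 and 10.12 in control arrays. Susceptible 3 and control 1 lay at almost the same value, and the difference was 0.17 (SE 0.062, limma adjusted p = 0.0964). Of the 7 type II cadherins measured, 5 were lower and 2 higher in susceptible mice than in controls, at a median of -0.13. The resilient split was 5 higher and 2 lower, at a median of 0.02. Under either other scaling of the arrays it was 3 higher and 4 lower. Of all genes 57.9% were higher in susceptible and 58.4% in resilient mice, or 47.8% in resilient mice with arrays shifted to one median. Limma called 0 of the 7 in either comparison, and the largest susceptible difference, that of Cdh5, was -0.25.

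Cdh18, a type II cadherin of neurons, had 8.44, 8.04 and 7.93 in susceptible, 8.14, 8.15 and 7.83 in resilient and 8.57, 8.36 and 8.21 in control arrays. Its resilient arrays lay below the controls and its susceptible arrays overlapped both. The difference was -0.24 (SE 0.14) in susceptible and -0.34 (SE 0.14) in resilient mice, with limma adjusted p-values of 0.187 and 0.234. Cdh22 differed by 0.17 (SE 0.065) in susceptible mice. Cdh8 had 11.30, 11.26 and 11.23 in susceptible, 11.22, 11.17 and 11.24 in resilient and 11.27, 11.16 and 11.15 in control arrays, and its groups overlapped. Clstn1, which encodes a calsyntenin that links vesicles to kinesin motors, had 12.09, 12.14 and 12.13 in susceptible, 12.04, 12.09 and 12.09 in resilient and 12.09, 11.997 and 12.10 in control arrays. Its susceptible difference of 0.06 (SE 0.040) turned to -0.01 with arrays shifted to one median. Ctnnal1, a relative of alpha-catenin and the 1 catenin gene measured of 9, had 8.53, 8.52 and 8.89 in susceptible, 8.43, 8.61 and 8.65 in resilient and 8.34, 8.40 and 8.44 in control arrays. Susceptible 3 stood highest, and the difference of 0.25 (SE 0.098) had a limma adjusted p of 0.102.

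The desmosomal cadherin Dsc1, best known from skin, had 7.04, 6.995 and 6.86 in susceptible, 7.01, 6.92 and 6.90 in resilient and 7.13, 7.37 and 7.21 in control arrays. Susceptible and resilient arrays overlapped each other, and all 6 lay below the controls. The differences were -0.27 (SE 0.069) in susceptible and -0.29 (SE 0.069) in resilient mice, and -0.28 (SE 0.059) in both defeated groups as one, with a limma adjusted p of 0.0542 for the last. Another desmosomal gene, Dsg2, had a difference of 0.20 (SE 0.095) in defeated mice, of the opposite sign (limma adjusted p = 0.149). Its mean of 6.18 lay just above the limit of dim signal, 6.12, with arrays from 5.91 to 6.49. Cdh16, the kidney cadherin, had 4.80, 4.69 and 4.77 in susceptible, 4.77, 4.77 and 4.82 in resilient and 4.86, 4.84 and 4.91 in control arrays. These 9 values lay in the range of the olfactory receptor genes, and so did those of the intestinal cadherin Cdh17, with 4.79 to 4.87. The muscle cadherin Cdh15 had 5.07, 5.12 and 5.01 in susceptible, 5.02, 5.07 and 5.08 in resilient and 5.16, 5.22 and 5.07 in control arrays, and the desmoglein gene Dsg1b 5.73 to 6.22 over all 9. The groups of both genes overlapped.

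**Figure D3:**
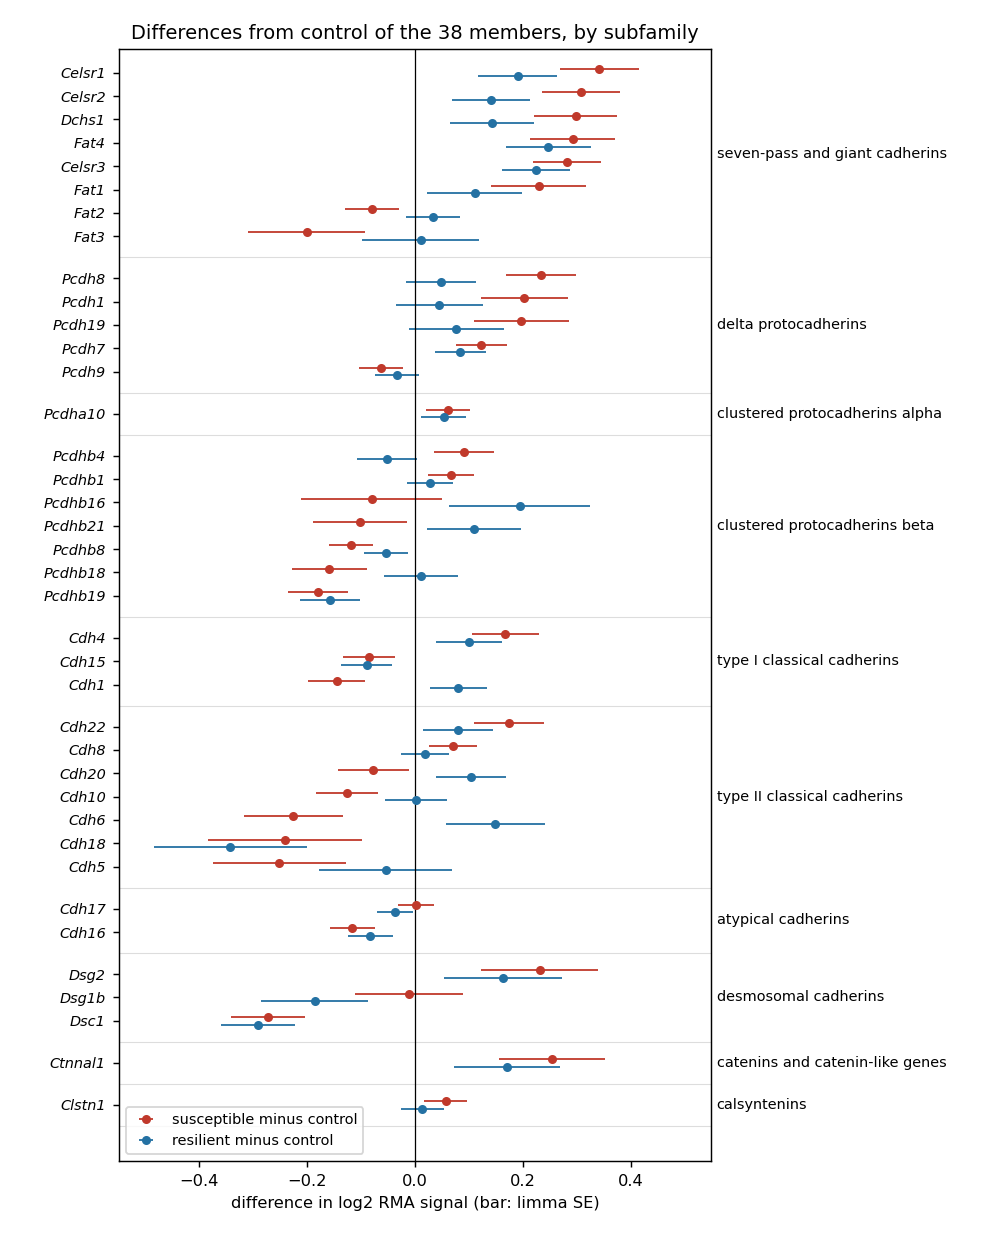
Differences in log2 signal (horizontal axis, bars are limma SE) of the 38 members between susceptible and control and between resilient and control mice, by subfamily from top to bottom. Celsr1, Celsr2, Celsr3, Dchs1, Fat1 and Fat4 lie to the right of 0 in both groups. Both differences of a gene share the same 3 control arrays.

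Over all 38 members the counts stayed near those of the table in defeated mice. Between defeated mice and controls limma called 0 members, against 1.29% of all genes, and 15 of 38 had an unadjusted p under 0.05, or 39.5% against 36.9%. Members with all 6 defeated arrays on one side of the controls numbered 6, or 15.8% against 17.4%. They were Celsr1, Celsr3 and Fat4, which were higher (10.9% of all genes), and Cdh16, Dsc1 and Pcdhb19, which were lower (6.45%). The median difference of the members was 0.03, against 0.04 for all genes. Of the members 22 were higher and 16 lower, and with arrays shifted to one median 16 were higher and 22 lower. Of all genes 58.6% were higher, or 47.4% with the same shift. Without resilient 1, 3 members were called, Celsr3, Dsc1 and Fat4, and without susceptible 1, 5 were. The share of all genes called without these arrays is not given here, so these counts are not read as results about the members.

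In susceptible mice set against controls, 19 of 38 members had an unadjusted p under 0.05, against 40.7% of all genes, and 21 had groups that did not overlap, or 55.3% against 40.2%. Of these 12 were higher, or 31.6% against 25.4%, and 9 lower, or 23.7% against 14.8%. In resilient mice set against controls limma called 0 members and 0.0% of all genes. Members with an unadjusted p under 0.05 numbered 6 in resilient mice, or 15.8% against 21.2%, and 8 had groups that did not overlap, or 21.1% against 28.1%.

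Between susceptible and resilient mice limma called 0 members and 0.0% of all genes, and 8 members had an unadjusted p under 0.05, or 21.1% against 11.8%. Groups did not overlap for 8 members, or 21.1% against 15.0%. Only Celsr2 was higher in susceptible mice among these 8, or 2.63% against 8.35%. The 7 lower members, or 18.4% against 6.65% of all genes, were Cdh1, Cdh5, Cdh6, Cdh10, Pcdhb8, Pcdhb16 and Pcdhb18.

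Cdh6, a type II cadherin known from kidney and from retinal circuits, had 7.87, 8.05 and 8.05 in susceptible, 8.57, 8.19 and 8.33 in resilient and 8.30, 8.18 and 8.16 in control arrays. The susceptible arrays were the lowest 3 of the 9. Susceptible minus resilient was -0.37 (SE 0.092), with a limma adjusted p of 0.411 and an unadjusted p of 0.00249. Cdh1, the epithelial E-cadherin, had 5.06, 5.14 and 5.15 in susceptible, 5.44, 5.34 and 5.24 in resilient and 5.24, 5.24 and 5.29 in control arrays, and a difference of -0.23 (SE 0.053) between susceptible and resilient mice. These values lay in the range of the olfactory receptor genes.

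Cdh10, a type II cadherin of neurons, had 10.71, 10.70 and 10.69 in susceptible and 10.79, 10.75 and 10.94 in resilient arrays, with controls at 10.91, 10.74 and 10.82. The susceptible arrays varied little and lay just below the rest. Cdh5, the VE-cadherin of endothelium, had 8.16, 8.43 and 8.30 in susceptible, 8.50, 8.52 and 8.46 in resilient and 8.84, 8.26 and 8.55 in control arrays. The resilient arrays lay close together above the susceptible ones, and the controls spread from among the susceptible arrays to above all 6 defeated arrays. The 4 measured markers of endothelium and mural cells, of 10, averaged 8.05 to 8.25 in susceptible, 8.20 to 8.26 in resilient and 8.20 to 8.41 in control arrays, and their part in the Cdh5 values was not tested.

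The mean of the striatal-type markers was also lower in susceptible than in resilient arrays. Of the markers 6 of 6 were lower, at a median of -0.67, while 54.1% of all genes were higher. The part of these markers in the values of Cdh6 and the other 6 members was not tested. The same markers had a median of -0.29 without resilient 1. Without that array, which stood apart in those markers, the difference was -0.27 for Cdh6 and -0.18 for Cdh1. Pcdh8 had the reverse order, at 0.19 (SE 0.065) in susceptible minus resilient mice, and 0.13 without resilient 1. In the same comparison all 14 choroid plexus and ependyma markers in the table were higher, at a median of 0.36. The 3 oligodendrocyte markers were lower, at a median of -0.20, and limma called 0 in either list. The part of these 2 lists in the values of Celsr2 and the other members was not tested.

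**Figure D4:**
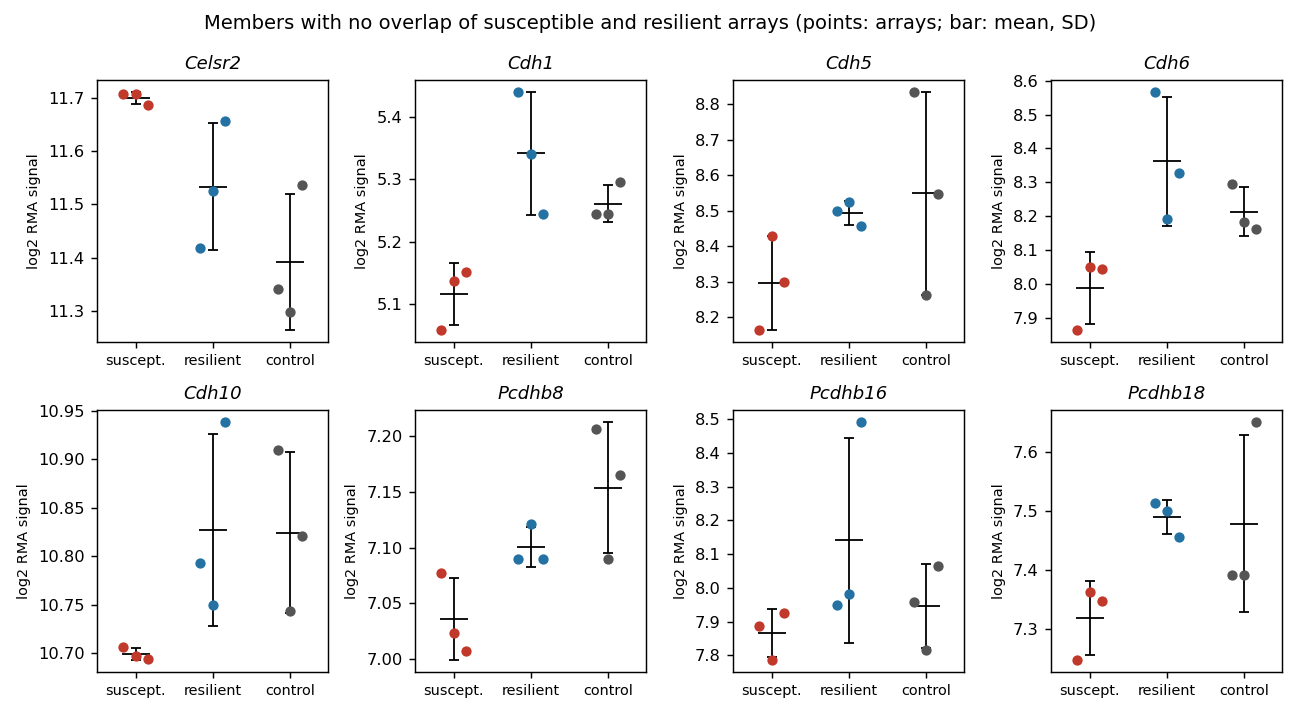
Log2 RMA signal (vertical axes, each with its own range) of the 8 members whose susceptible and resilient arrays did not overlap, in susceptible, resilient and control arrays; points are arrays, horizontal bars group means and error bars SD (n = 3 each). Celsr2 is higher in susceptible than in resilient arrays and the other 7 are lower.

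Genes that work with cadherins were also counted between defeated and control mice, where 58.6% of all genes were higher, or 52.0% after quantile normalisation, and 1.29% were called. Among junction and catenin partners, 9 of 12 measured genes were higher in defeated mice than in controls and limma called 0, with Mllt4, which encodes afadin, at 0.19 and the plakophilin gene Pkp3 at -0.20. Planar polarity and Hippo partners act with or downstream of Celsr, Fat and Dchs proteins. Of these partners 11 of 12 were higher and 0 called, with a median of 0.10, and 9 of 12 were higher after quantile normalisation. Yap1, the Hippo effector, had a difference of 0.19 and Lats2, a kinase that restrains it, 0.18. Of 10 genes that regulate the protocadherin clusters, 9 were higher, or 6 after quantile normalisation, and 1 was called, the DNA methyltransferase gene Dnmt3a (0.25, SE 0.046, limma adjusted p = 0.0432). Of 9 genes around beta-catenin, 4 were higher and 1 was called, its co-activator gene Bcl9l (0.18, SE 0.032, limma adjusted p = 0.0432). Of 6 protease and phosphatase genes 5 were higher, or 4 after quantile normalisation, with Ptpru, a phosphatase of the cadherin complex, at 0.25. Of the 4 protocadherin signalling partners measured all were higher, with a median of 0.07, but 3 of 4 were higher after quantile normalisation or with arrays shifted to one median, each with a median of 0.02. Limma called 0 in these last 2 lists. The 1 other cadherin-repeat gene, Cdhr4, had 6.68, 7.04 and 7.10 in susceptible, 6.54, 6.52 and 6.57 in resilient and 6.67, 6.55 and 6.94 in control arrays. The susceptible arrays lay above the resilient ones and overlapped the controls, and susceptible minus resilient was 0.39 (SE 0.12, limma adjusted p = 0.411, unadjusted p = 0.00839). Its differences from controls were 0.22 (SE 0.12) in susceptible and -0.17 (SE 0.12) in resilient mice, both uncalled by limma. With the allowance Dnmt3a and Bcl9l had adjusted p-values of 0.151 by limma.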

How the data were processed

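The authors deposited log2 values made with RMA, and Partek is also named, per the submitters' processing notes. The sources used here give no versions and no array annotation. RNA (100 ng per array) was labelled with the Ambion WT Expression Kit, per the labels' protocols. Gene symbols came from a second deposited table, whose 9 value columns match no sample label and were not used. Entries numbered 11772 for 9803 symbols, and the entry with the highest mean was kept. The table's order followed the one-way analysis of variance p (Spearman's rho 1), so it had been selected on that p. Array medians were 7.11 to 7.19.

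All 9 arrays entered a single limma fit (limma 3.58.1, R 4.3.3) with a mean per group, contrasts and eBayes (prior degrees of freedom 3.40). Defeated is the mean of the susceptible and resilient groups. The 4 comparisons share arrays. limma was tested on simulated data first. Python 3.11.15 with pandas 2.3.3 made the tables. Alternatives were shifted or quantile-normalised arrays, the selection allowance, means over entries, dim genes left out, array weights, a replicate block and each array left out.

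Members with array values are those called, the leading members of each subfamily by p or size of difference, and a fixed list of well-known members; partners are named when called or among the largest differences of their list. Members, lists and rule were chosen with earlier results of these data known. Promoter windows are from RefSeq, build GRCm38.p6.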

Additional observations from a re-analysis of the deposited data

Results flagged for a closer look

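Among the 6 defeated arrays, 1 array lay far from the other 5 for 3 of the 38 members, where the gap to the nearest array divided by the whole range was above the critical value of 0.625. Chance marks about 1 in 20 such groups. For Pcdhb16 the ratio was 0.724, with resilient 3 highest at 8.49 and the others at 7.79 to 7.98. For Cdh16 it was 0.631, with susceptible 2 lowest at 4.69 and the others at 4.77 to 4.82. For Pcdhb21 it was 0.630, with susceptible 1 lowest at 6.12 and the others at 6.42 to 6.60.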

How the results depend on the processing

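Counts of called members depended on the setting, as did calls over all genes. The share of all genes is not given for each setting, so these counts are not read as results about the members. Between defeated and control mice the count of 0 became 1 with arrays shifted to one median, 3 with dim genes left out and 9 with array weights, and 0 to 5 when single arrays were left out. Between susceptible and control mice the count of 1 became 9 with shifted arrays, 0 with quantile normalisation, 0 with the selection allowance, 2 with means over entries, 4 without dim genes, 16 with array weights and 0 with the replicate block, and 0 to 6 when single arrays were left out. The other 2 comparisons gave 0 members under every alternative run. Over all genes the susceptible calls numbered 235, from 0 with the block to 3443 with array weights. The median member difference between defeated and control mice, 0.03, was -0.022 with shifted arrays, -0.00037 with quantile normalisation and 0.057 without dim genes, and 0.0073 to 0.043 with single arrays left out. In susceptible mice the median of 0.03 was -0.035 with shifted arrays, 0.059 with means over entries and 0.0705 without dim genes. In resilient mice the median of 0.05 was 0.012 with shifted arrays and 0.076 without dim genes, and 0.028 to 0.073 with single arrays left out. Susceptible minus resilient, 0.04, was 0.0090 with shifted arrays. The causes were not tested. Fat3 in susceptible mice, -0.20, reversed to 0.12 as a mean over entries and to 0.13 as the median of entries fitted on their own, an alternative chosen after seeing the data. Celsr1 in susceptible mice had limma adjusted p-values of 0.0345 to 0.171 over 16 alternatives. The 48 member differences with an unadjusted p under 0.05 kept their sign under each of 15 or 16 alternatives. They were picked for a small p, and some alternatives cannot change a difference, so their stable signs are no independent support. Of the 104 differences with an unadjusted p of at least 0.05, which include that of Fat3, 43 changed sign under some alternative. Same-numbered arrays of different groups had correlations of -0.0784 to 0.247 of their deviations from group means. Differently numbered arrays had -0.281 to 0.350. With 3 arrays per group, and controls numbered 1, 2 and 4, these values cannot settle whether replicate numbers pair the arrays. Signal over background limits 7 members.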
